A study of Mus musculus with 8 samples.

Results

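The sites described here are narrow stretches of chromatin where Ezh2 was called in wild-type mouse embryonic stem cells and was called again in cells lacking the H3K9 methyltransferases G9a and GLP. A focal site is a peak of wild-type Ezh2 library 1 on chromosomes 1 to 19 that is narrower than 4000 bp, and it counts as kept when at least 1 bp of it lies under a peak of wild-type library 0 and under a peak of the double knockout. By this rule 1145 of the 11593 library 1 peaks on these chromosomes were kept focal sites. Library 1 had 11067 focal peaks in all, of which 10.3% met the rule, and 2076 of them were also called in library 0. The other 931 of these 2076 sites had no knockout peak and are called uncalled focal sites below. The sites were chosen by the width and overlap of the peaks called in the 3 Ezh2 lists, so widths, scores and peak positions in those lists are described and not tested.

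Polycomb repressive complex 2 (PRC2) methylates lysine 27 of histone H3 through its enzyme subunit, Ezh2. In embryonic stem cells PRC2 sits mainly at CpG-rich promoters of silent developmental regulators, where it forms broad domains over some gene clusters and short peaks over single promoters. G9a and GLP form a heteromeric enzyme that places mono- and dimethylation on lysine 9 of the same histone. The series asks, by its title, how these H3K9 enzymes bear on silencing by PRC2.

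The libraries were made from TT2 embryonic stem cells, a line from a C57BL/6 by CBA cross, grown with serum and LIF. Ezh2 was immunoprecipitated from G9a-/- GLP-/- cells (1 library, numbered 0) and from wild-type cells (2 libraries, numbered 0 and 1). G9a was immunoprecipitated from G9a-/- GLP-/- cells given back wild-type G9a, called the rescue (1 library), and from wild-type cells (1 library). By its label the rescue received G9a alone and so still lacked GLP, and the labels do not say how many knockout or rescue clones were used. The labels do not tie wild-type Ezh2 libraries 0 and 1 to different cultures, and differences between them may be technical. With 1 knockout library, 1 rescue library and 1 wild-type G9a library, no test between conditions was possible. Peak lists carry neither the cells' expression markers nor the deleted genes' products, so cell identity and genotype were taken from the labels.

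The lists held 6198 knockout Ezh2 peaks, 5425 and 11766 wild-type Ezh2 peaks in libraries 0 and 1, 83721 rescue G9a peaks and 67318 wild-type G9a peaks. Their lowest peak scores were 43.03 for knockout Ezh2, 43.02 and 30 for wild-type Ezh2 libraries 0 and 1, and 20 for each G9a list. Knockout Ezh2 peaks were the narrowest of the Ezh2 lists over the whole genome, with a median of 368 bp, against 467 bp in library 0 and 720 bp in library 1. It is not clear from the series' design text whether the knockout list was called against the pooled wild-type inputs or against the knockout input, and every kept or uncalled call and every knockout cover below rests on that list. The files hold no read counts, so sequencing depth is unknown. No gene or DNA sequence was assigned to a site, because no mm9 annotation or genome was used here, and sites are named by mm9 position.

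Kept focal sites were wider than those with no knockout call. Their median width was 2392 bp (quartiles 1757 and 3056, range 220 to 3997, n = 1145), against 1510 bp (quartiles 984 and 2062, range 245 to 3987, n = 931) for uncalled focal sites. With library 1 left out and focal library 0 peaks taken as the sites, the median width of kept sites was 785 bp and the number of kept sites 2735. The share of sites that were kept was higher in each wider class up to 3500 bp. It was 15.6% (44 of 282) below 1000 bp, 50.3% (220 of 437) from 1500 to 2000 bp and 84.4% (184 of 218) from 3000 to 3500 bp. From 3500 to 4000 bp it was 84.7% (133 of 157), close to the class before it. Over all widths 55.2% of focal sites were kept (exact binomial 95% interval 53.0 to 57.3), against 96.2% (94.1 to 97.6; 500 of 520) of the broad sites of 4000 bp or more. Without library 0 the share kept was 15.5%, since it is then taken over all focal library 1 peaks, and without library 1 it was 51.5% of focal library 0 peaks. Intervals on shares of sites cover counting of sites only and take sites as independent, which neighbours are not. A site counts as kept when at least 1 bp meets a knockout peak, so a wider site has more length to meet one. The part of this in the differences between width classes, and between focal and broad sites, was not tested.

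**Figure D1:**
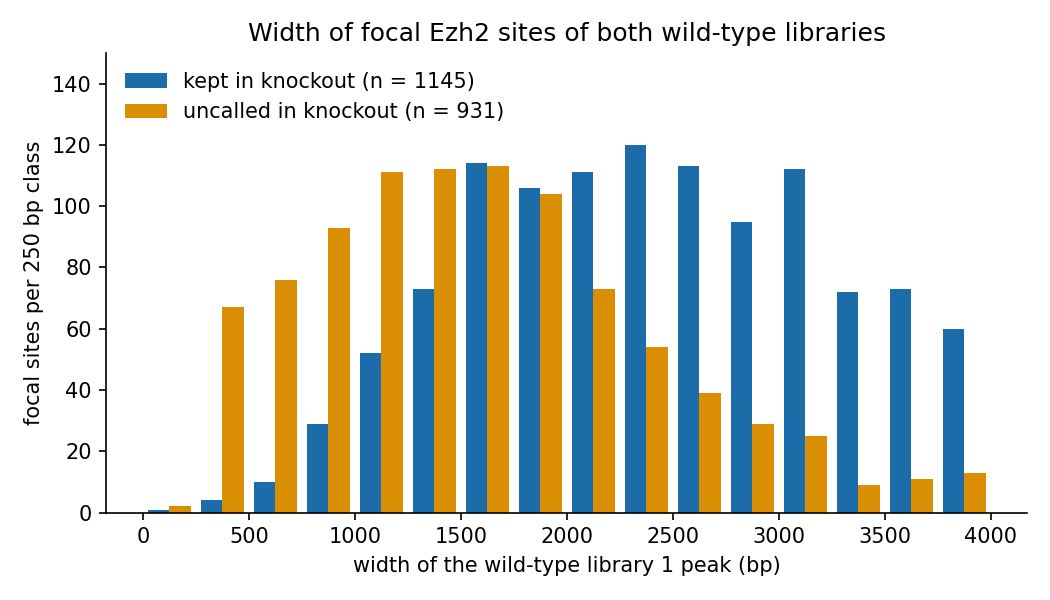
Number of focal Ezh2 sites per class of width, for sites kept in the knockout (blue, 1145) and sites with no knockout call (orange, 931); the x axis gives the width of the wild-type library 1 peak in bp. Uncalled sites outnumber kept sites in the narrow classes and kept sites outnumber uncalled sites in the wide ones, with medians of 2392 and 1510 bp for kept and uncalled sites.

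The width limit cuts through a continuous range. The widest kept focal sites were chr7:150628933-150632929 (3997 bp), chr1:122508342-122512331 (3990 bp) and chr2:18618837-18622826 (3990 bp). Their knockout scores were 109.48, 97 and 423.99. The first kept sites past the limit, chr15:100874907-100878907 (4001 bp), chr8:4203851-4207852 (4002 bp) and chr2:165058147-165062151 (4005 bp), had knockout scores of 242.16, 237.8 and 321.59. The narrowest kept sites were chr10:59152030-59152249 (220 bp), chr18:37891134-37891412 (279 bp) and chr11:107915166-107915462 (297 bp). In all 3 of these narrow sites each Ezh2 list had a single peak, and the sites on chromosomes 10 and 11 also ranked among the 5 lowest by score.

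Inside the kept sites Ezh2 was called over a shorter stretch in the knockout than in either wild-type library. Knockout peaks covered a median of 694 bp of a site (quartiles 416 and 1075), against 920 bp (577 and 1425) for library 0. Expressed as a share of the site, which is the whole of a library 1 peak, the medians were 31.9% for the knockout and 42.2% for library 0. The knockout covered less than library 0 in 772 of 1145 sites (67.4%), more in 369 (32.2%) and the same length in 4. The median ratio of knockout to library 0 cover was 0.80 (quartiles 0.55 and 1.10, range 0.05 to 5.26). In the 500 kept broad sites the median ratio was 0.78 (quartiles 0.58 and 0.96), so focal and broad sites lay close together on this measure. Knockout peaks were narrower than library 0 peaks over the whole lists too, and the part of that in these ratios was not tested.

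**Figure D2:**
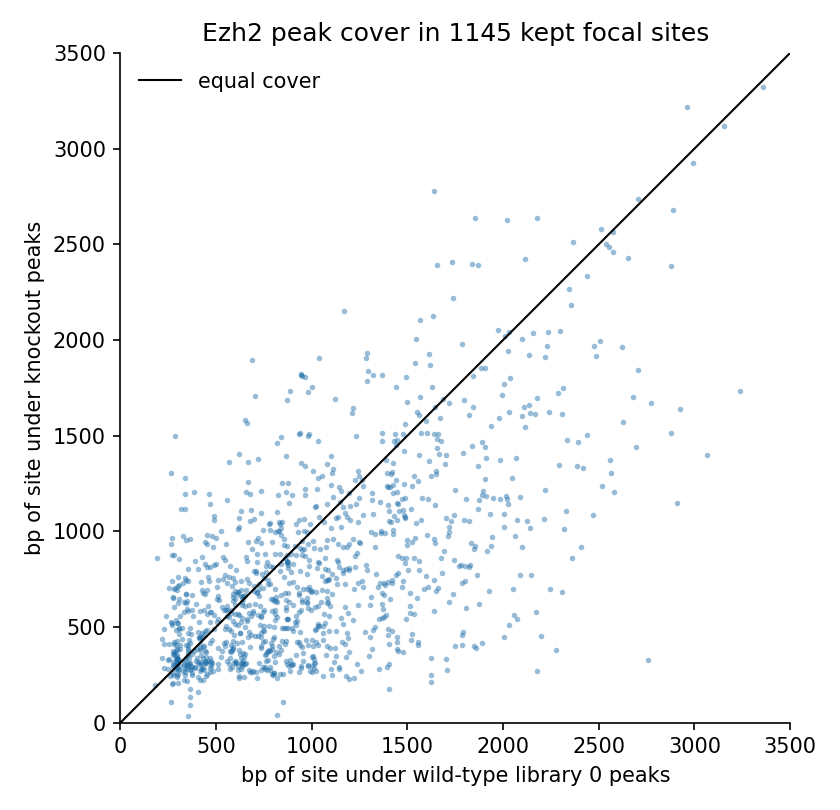
Each point is 1 of the 1145 kept focal sites; the x axis gives the bp of the site under wild-type library 0 peaks and the y axis the bp under knockout peaks. Points spread widely on both sides of the line of equal cover, with 772 sites below it and 369 above it.

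The ratio varied with width and with the strength of the wild-type call. Among kept sites split into 4 equal groups by width, the narrowest group (220 to 1757 bp) had a median ratio of 0.91 and the widest (3058 to 3997 bp) one of 0.77. The knockout covered less than library 0 in 60.3% of the narrowest group and in 73.4% of the widest. Split instead by library 0 score, the weakest group (scores 43.06 to 81.14) had a median ratio of 1.10, with 466 bp covered in the knockout and 394 bp in library 0. The strongest group (307.7 to 1493.91) had a ratio of 0.72, with 1177 bp covered in the knockout and 1700 bp in library 0. Library 0 enters both this grouping and the ratio, so the pattern is not independent of the grouping.

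Knockout calls were split into pieces about as often as those of library 0. A single knockout peak lay in 703 sites (61.4%) and 2 or more in 442, against a single library 0 peak in 733 sites (64.0%) and 2 or more in 412. Both lists had exactly 1 peak in 500 sites. The knockout had more peaks than library 0 in 282 sites, fewer in 244 and the same number in 619. The 1145 sites held 1705 distinct knockout peaks and 1667 distinct library 0 peaks, and in each list 1 peak was shared by 2 sites.

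The knockout peak lay over the wild-type peak in most kept sites: the highest-scoring peaks of the knockout and of library 0 overlapped in 962 of 1145 (84.0%). The centre of the highest-scoring knockout peak lay a median of 306 bp from the centre of the site (quartiles 139 and 541), against 274 bp (123 and 507) for library 0. The distance between the knockout and the library 0 centres was smaller, with a median of 180.5 bp (quartiles 81.5 and 407). It was within 100 bp in 345 sites (30.1%) and over 1 kb in 66 (5.76%). In the 500 sites with 1 peak in each list the median distance was 149 bp, and the 2 peaks overlapped in 434 (86.8%). Chromatin was sheared to fragments of about 150 to 300 bp, per the labels' protocols, so these median distances are of the order of a fragment.

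The knockout and library 0 peaks also leaned to the same side of the site. Both top peaks lay on the same side of the site centre in 822 of 1145 sites (71.8%), and Spearman's rho of their signed distances from the centre was 0.52 over the 1145 sites. Both peaks have to touch the same library 1 peak, which limits how far apart they can be. Along the sites, knockout peaks covered 54.6% of site centres, 38.5% of positions 500 bp away and 15.5% of positions 1000 bp away. Library 0 peaks covered 69.1%, 48.4% and 21.5% of the same positions. At 5000 bp, which lies outside every site, the shares were 2.75% for the knockout and 3.67% for library 0. The rule requires a peak of each list in the site, so a drop to that distance follows from the choice of sites.

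**Figure D3:**
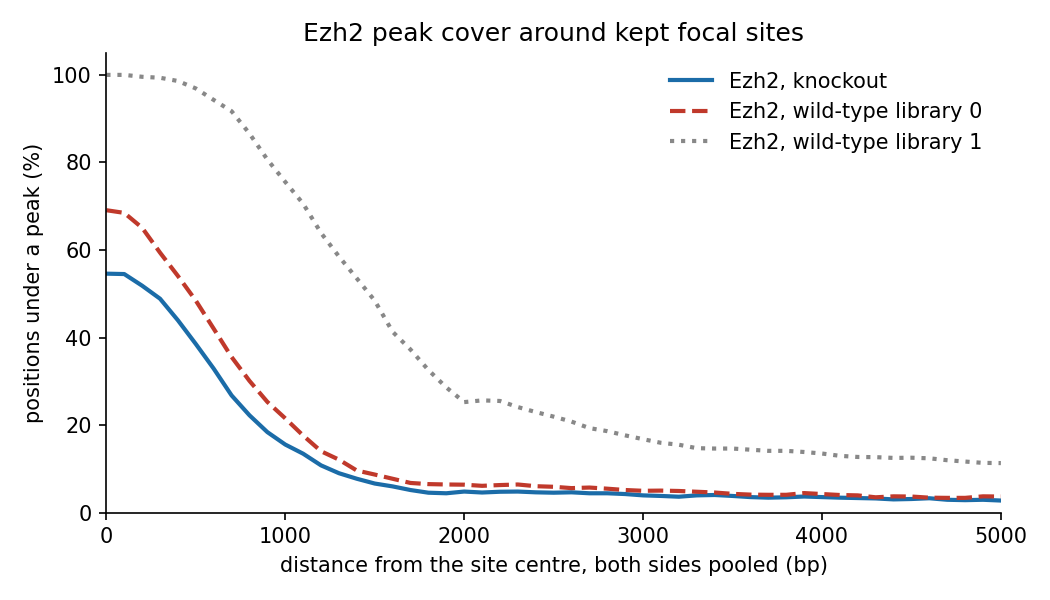
Share of positions under a called Ezh2 peak (y axis, percent) at increasing distance from the centre of the 1145 kept focal sites (x axis, bp, both sides pooled), for the knockout (solid), wild-type library 0 (dashed) and wild-type library 1 (dotted), whose peaks define the sites and so cover every centre. The knockout curve lies below that of library 0 from the centre (54.6% and 69.1%) to 1000 bp (15.5% and 21.5%).

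In a few kept sites a knockout peak lay at or past the site edge. Knockout peaks ran past the edge of the library 1 peak in 65 sites, by a median of 82 bp and at most 1337 bp, against 7 sites for library 0. The knockout peak farthest from the site centre was that of chr16:94086722-94090103, where the peak centre lay 2351 bp before the site centre and the site itself was 3382 bp wide. That peak (94085385-94086738) ranked at percentile 99.1 of its list but reached the site only at its edge. The site held 3 knockout peaks, which together covered 1622 bp of it, and another library 1 peak lay 19 bp away. The next were chr13:56348748-56352336 and chr8:111315686-111319291, with knockout peaks centred 1698.5 and 1518.5 bp before the site centre and scores of 44.03 and 72.26.

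In 86 of the 1145 kept sites no base lay under both a knockout and a library 0 peak, although both peaks touched the same library 1 peak. These sites were weakly called in both lists. Their median knockout score was 51.23, against 98.13 in the 1059 sites that share a base, and their median library 0 scores were 56.9 and 174.84 in the same order. They were about as wide as the rest, at 2179 bp against 2417 bp, and their median library 1 percentiles were 86.0 and 90.3. Their highest-scoring peaks were narrower, with medians of 307.5 bp in the knockout and 344 bp in library 0. In the 1059 sites these were 556 and 772 bp. The part of peak width in the missing overlap was not tested. Rescue G9a peaks lay in 32.6% of these 86 sites (28; 22.8 to 43.5) and in 18.6% of the 1059 (197; 16.3 to 21.1). Wild-type G9a peaks lay in 18.6% (16; 11.0 to 28.4) and 14.5% (154; 12.5 to 16.8). These subsets were defined after the values were seen, and the difference was not tested.

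Peak scores, which rank peaks within one list only, placed the kept focal sites above the middle of each Ezh2 list. The score percentile, the share of a list's peaks at or below the score, had a median of 70.6 in the knockout (quartiles 52.9 and 83.3), 68.6 in library 0 (47.6 and 81.7) and 89.9 in library 1 (85.1 and 93.4). Of the 1145 sites, 133 lay in the top 10% of the knockout list, 121 in that of library 0 and 562 in that of library 1. The lower 50% of the list held 262 sites for the knockout, 312 for library 0 and 5 for library 1. Kept broad sites ranked higher, with medians of 92.8 in the knockout, 92.6 in library 0 and 99.9 in library 1. In the knockout and library 0 a site takes the score of its highest-scoring peak. Only 12.2% of kept broad sites had a single knockout peak, against 61.4% of kept focal sites. The broad median in library 1 is the percentile of score 3100, which the first-ranked kept focal sites named below also held. Uncalled focal sites had medians of 39.6 in library 0 and 80.6 in library 1.

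The order of the sites by score was only partly shared between lists. Spearman's rho over the 1145 sites was 0.50 between the knockout and library 0 and 0.48 between the knockout and library 1, against 0.76 between the wild-type libraries. The points share the site and its width, and the wild-type lists share pooled inputs as their control, so these values are a description. The knockout percentile was above that of library 0 in 651 sites. It was more than 30 points above in 133 sites and more than 30 points below in 122.

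The kept focal sites ranked first over the 3 Ezh2 lists were all among the wider ones. The first was chr4:153512874-153516561 (3688 bp), with a knockout score of 1158.57 and library 0 and 1 scores of 1492.72 and 3100. Knockout peaks covered 2562 bp of it and library 0 peaks 2574 bp, so nearly the same length was called. The next was chr8:15026690-15030463 (knockout score 930.79, library 0 score 1493.91), with 2925 bp covered in the knockout and 2991 bp in library 0. It was followed by chr11:21901785-21905193 (knockout score 921.92), chr2:147018187-147021655 (805.47) and chr6:83652047-83655102 (756.69). None of these 5 sites held a G9a peak of either list, as was true of 72.8% of all kept focal sites and 75.8% of all focal peaks. In each of the 5 the ratio of knockout to library 0 cover lay between 0.98 and 1.09.

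The lowest-ranked kept sites had low scores in the knockout and in library 0. The lowest was the 297 bp site on chromosome 11 named above, with scores of 43.13 in the knockout, 43.15 in library 0 and 32.56 in library 1. Its knockout and library 0 peak centres were 25.5 bp apart. The next were chr15:100882413-100883323, chr15:88890522-88891272, the 220 bp site on chromosome 10, and chr11:89160804-89161706. Their knockout scores were 45.41, 43.17, 56.34 and 45.47, against library 0 scores of 43.93, 53.46, 48.59 and 44.7. None of them held a G9a peak, like 72.8% of all kept focal sites.

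Narrow did not mean isolated. Another library 1 peak lay within 1 kb of 693 of the 1145 kept focal sites (60.5%), and 354 (30.9%) had none within 10 kb. Uncalled focal sites were close to this, with 59.2% and 31.5% in the same order. All focal library 1 peaks had 45.4% and 41.4%. The gaps from kept focal sites to the nearest library 1 peak formed a near group and a far group with few between, with a median of 291 bp (quartiles 69 and 25569). Joining library 1 peaks over gaps of up to 1 kb put 403 sites (35.2%) into clusters that span 4000 bp or more, against 227 of 931 (24.4%) uncalled focal sites. The span includes the site itself, and kept sites were wider (medians of 2392 and 1510 bp). The clusters of kept and of uncalled sites each held a median of 2 library 1 peaks, and the part of site width was not tested. For the 403 kept sites the label focal therefore describes the called peak and not the whole enriched stretch. Broad sites lay within 1 kb of 84 kept focal sites (7.34%) and of 52 uncalled ones (5.59%).

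**Figure D4:**
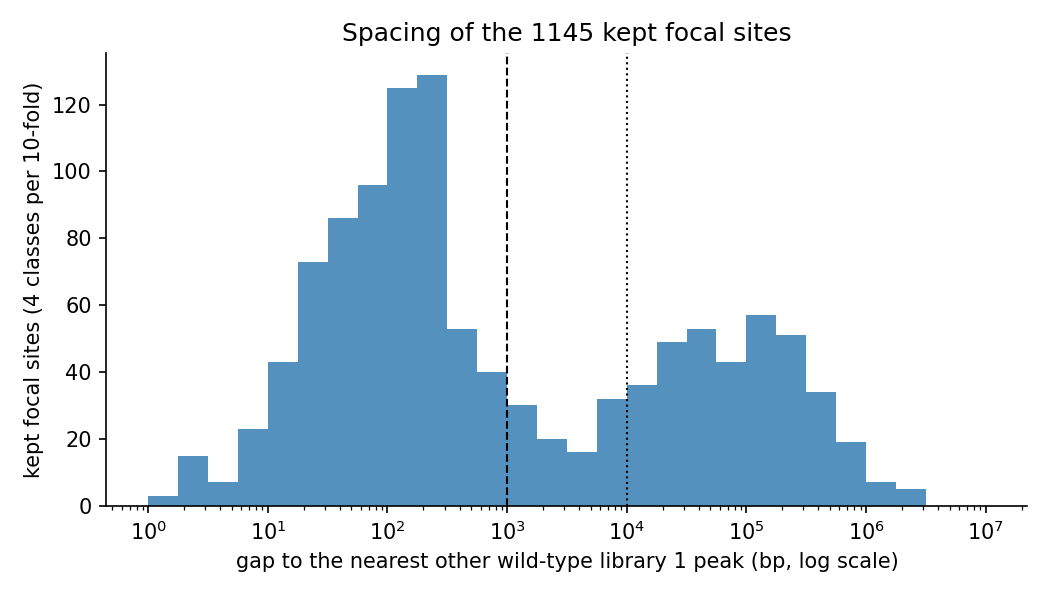
Number of kept focal sites (y axis) by the gap to the nearest other wild-type library 1 peak (x axis, bp, log scale, 4 classes per 10-fold step); the dashed line marks 1 kb and the dotted line 10 kb. The sites fall into a near group left of the dashed line (693 sites) and a far group right of the dotted line (354 sites), with few between.

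The median distance from a kept focal site to the nearest other one was 367358 bp (quartiles 36884 and 1313787), and 133 sites (11.6%) had another within 1 kb. This spacing depends on how sites are called. It was 341 bp with focal library 0 peaks as the sites (without library 1), 170427 bp without library 0, and 301 bp when gaps of up to 1 kb counted as overlap. The closest pair, chr10:19568471-19570146 and chr10:19570150-19572950, was separated by 3 bp. The knockout covered 541 bp of the first and 1470 bp of the second, against 1494 and 1675 bp in library 0. The next pair, chr5:120873617-120875576 and chr5:120875586-120879334, was separated by 9 bp. Its sites had 693 and 1147 bp covered in the knockout, against 1053 and 2910 bp in library 0.

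Isolated and crowded sites were kept at similar rates. Among focal sites of both wild-type libraries, 54.7% (354 of 647; 50.8 to 58.6) of those with no library 1 peak within 10 kb were kept, and 55.7% (693 of 1244; 52.9 to 58.5) of those with one within 1 kb. The median width of the kept sites was 2470 bp for isolated and 2354 bp for crowded sites. The ratio of knockout to library 0 cover was 0.85 in isolated sites (quartiles 0.56 and 1.21) and 0.77 in crowded ones (0.53 and 1.02).

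Kept focal sites were found on every autosome, in numbers from 31 on chromosome 16 to 106 on chromosome 11. The share of focal sites that were kept was lowest on chromosome 13 (39.7%; 46 of 116; 30.7 to 49.2) and chromosome 1 (40.3%; 60 of 149; 32.3 to 48.6). It was highest on chromosome 15 (66.3%; 57 of 86; 55.3 to 76.1). The ratio of knockout to library 0 cover also had its lowest median on chromosome 1, at 0.57, and its highest on chromosome 18, at 1.00. These extremes were picked out of 19 chromosomes after seeing the values and were not tested.

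The G9a lists did not enter the choice of sites, and they placed G9a in a minority of them. A rescue G9a peak overlapped 225 kept focal sites (19.7%; 17.4 to 22.1), against 169 of 931 uncalled focal sites (18.2%; 15.7 to 20.8) and 16.0% of all focal library 1 peaks. A wild-type G9a peak overlapped 170 kept focal sites (14.8%; 12.8 to 17.0), against 145 uncalled focal sites (15.6%; 13.3 to 18.1) and 14.1% of all focal library 1 peaks. The difference in wild-type G9a share, kept minus uncalled, was -0.73 percentage points (95% interval -3.87 to 2.36). The wild-type G9a share in kept sites thus lay near that of all focal peaks. The rescue share lay above that of all focal peaks (interval 15.3 to 16.7), of which the kept sites are a part, and this difference was not tested. All focal peaks are much narrower (median 687 bp), and in every width class given below kept sites had the lower rescue share. With focal library 0 peaks as the sites (without library 1), rescue and wild-type G9a peaks lay in 6.73% and 5.01% of 2735 kept sites, against 7.09% and 6.90% of 2580 uncalled sites. Both G9a lists had a peak in 84 kept sites (7.34%), against 64 uncalled sites (6.87%) and 5.93% of all focal peaks. Neither list had one in 834 kept sites (72.8%), close to the 681 uncalled sites (73.1%) and 75.8% of all focal peaks.

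G9a peaks were found in more of the wider sites. Rescue and wild-type G9a shares were 23.8% and 16.4% in the widest of the 4 groups of kept sites, against 15.7% and 10.5% in the narrowest. The shares were therefore also set side by side within width classes. Below 1000 bp the rescue and wild-type G9a shares were 11.4% and 13.6% in kept sites, against 10.9% and 8.82% in uncalled sites and 14.1% and 12.5% of all focal peaks of that width. From 1000 to 1500 bp these shares were 16.0% and 13.6% in kept sites, against 13.9% and 12.1% in uncalled sites. All focal peaks of that width had 17.9% and 16.3%. In both of these narrow classes the shares were thus higher in kept than in uncalled sites. From 1500 bp upwards both shares were lower in kept than in uncalled sites in each of the 5 classes. This split at 1500 bp was described after seeing the values. The widest gap between kept and uncalled sites with more than 50 sites on each side was that for wild-type G9a from 2500 to 3000 bp, an example picked after seeing the values. There wild-type G9a peaks lay in 39 of 208 kept sites (18.8%; 13.7 to 24.7), against 22 of 68 uncalled sites (32.4%; 21.5 to 44.8) and 21.1% of all focal peaks. From 3500 to 4000 bp rescue G9a shares were 28.6% in kept sites, 33.3% in uncalled sites and 28.8% in all focal peaks. Against all focal peaks of their own class, kept sites had the lower rescue share in each of the 7 classes and the lower wild-type share in each class but that below 1000 bp. The intervals of kept sites overlapped those of uncalled sites and of all focal peaks in every class, and no test was run. Per length of site, without matching for width, rescue G9a peaks covered 5.12% of the bp of kept sites and 7.21% of uncalled sites. Wild-type G9a peaks covered 4.57% and 7.03%. All focal library 1 peaks together had 7.59% and 7.89% of their bp under rescue and wild-type G9a peaks, and kept broad sites 2.99% and 2.38%. Across these groups both shares fell as the median width rose, and the part of width was not tested.

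**Figure D5:**
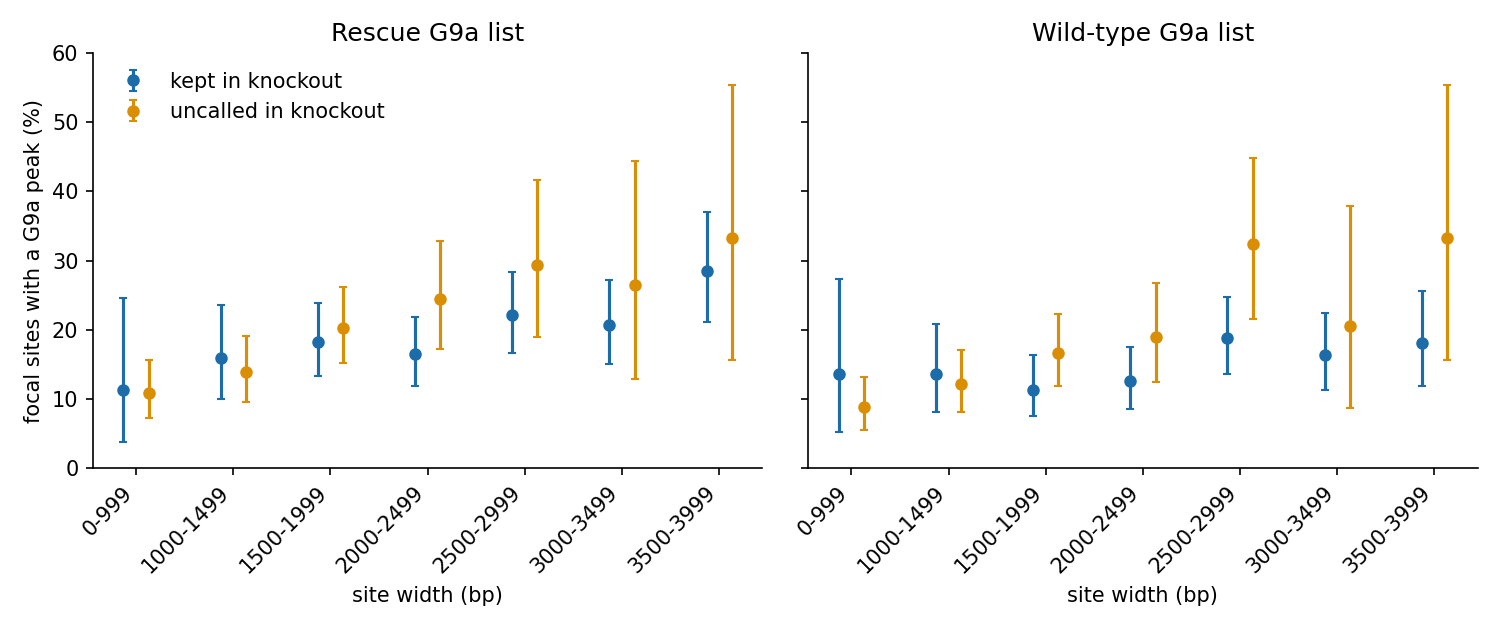
Share of focal Ezh2 sites that overlap a G9a peak (y axis, percent) by class of site width (x axis, bp), for the rescue list (left) and the wild-type list (right); points are shares, bars exact binomial 95% intervals, blue sites kept in the knockout and orange sites uncalled in it. In both panels blue points lie above orange ones below 1500 bp and below them from 1500 bp upwards, with overlapping bars.

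Where a G9a peak met a kept site, it lay off the centre more often than on it. The centre of the rescue G9a peak was a median of 814 bp from the site centre (quartiles 501 and 1128, n = 225), and that of the wild-type G9a peak 689 bp (367 and 1000, n = 170). The G9a peak overlapped a knockout Ezh2 peak in 116 of 225 sites with a rescue peak (51.6%) and in 91 of 170 sites with a wild-type peak (53.5%). It overlapped a library 0 Ezh2 peak in 119 (52.9%) and 111 (65.3%) of the same sites. The G9a peaks lay wholly inside the site in 121 and 97 of them. The kept sites with a rescue or wild-type G9a peak had median widths of 2571 and 2586.5 bp. The distances were not set against those at other focal sites or those given by site width alone.

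At the very centre of kept sites, a rescue G9a peak was present in 3.67% and a wild-type one in 4.19%. At uncalled focal sites the values were 5.59% and 6.44%, and at the 8426 focal peaks of library 1 alone they were 9.53% and 9.67%. At 1000 bp from the centre the kept sites had 5.50% and 4.50%, uncalled sites 7.30% and 5.64%, and library 1-alone sites 6.10% and 5.48%. G9a cover was therefore highest at the centre at library 1-alone sites and not at kept sites, in these lists. Library 1-alone sites were much narrower, with a median of 555 bp, so their centre lies closer to their edges. The part of width in this was not tested.

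Kept sites with and without G9a lay close together in how they were called in the knockout, and the difference was not tested. The ratio of knockout to library 0 cover was 0.78 with and 0.81 without a rescue G9a peak, and 0.77 with and 0.80 without a wild-type one. The quartiles of these groups overlapped widely, from 0.49 to 1.11 with a wild-type G9a peak and from 0.56 to 1.09 without. Knockout score percentiles had medians of 65.5 with and 71.5 without a rescue G9a peak, and of 64.8 and 71.5 with and without a wild-type one.

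The G9a peaks at kept sites were mostly of middling rank in their lists. The rescue peaks had a median score percentile of 63.1 (quartiles 33.0 and 87.8) and the wild-type peaks one of 50.6 (29.0 and 70.4). With G9a peaks held to a score of at least 50, a rescue peak lay in 5.15% of kept sites (3.95 to 6.60), against 4.62% of uncalled sites and 4.30% of all focal peaks. A wild-type one lay in 3.06% of kept sites (2.14 to 4.23), against 4.51% of uncalled sites and 4.70% of all focal peaks.

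Rescue G9a peaks were few on chromosomes 1 and 8 in kept sites, in uncalled sites and among all focal peaks alike. They lay in 6.92% of kept sites (9 of 130), 10.9% of uncalled sites (14 of 128) and 7.27% of all focal peaks on these chromosomes. On the other autosomes the shares were 21.3% (216 of 1015), 19.3% (155 of 803) and 17.8% in the same order. Wild-type G9a peaks lay in 16.9% of kept sites (22 of 130), 23.4% of uncalled sites and 21.4% of all focal peaks on chromosomes 1 and 8, against 14.6% (148 of 1015), 14.3% and 12.6% on the other autosomes. These chromosomes were picked out of 19 after rescue values had been seen, as the lowest by rescue share of kept sites.

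The strongest wild-type G9a peak at a kept site lay at chr17:80111545-80115280, where the G9a scores were 255.72 in the rescue and 523.46 in the wild type. Its G9a peaks were centred 2230 bp (rescue) and 2751 bp (wild type) past the site centre, so they reached into the site only at its edge, over 152 and 659 bp. The site chr5:137506833-137508707 had rescue and wild-type G9a scores of 732.52 and 449.28 beside weak Ezh2 scores of 48.41 in the knockout and 45.66 in library 0. The site chr11:35610371-35612801 had G9a scores of 714.77 and 347.62 in the rescue and the wild type, and G9a peaks covered 1645 and 1674 of its 2431 bp. These 3 sites also ranked first among those with peaks of both G9a lists.

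The next 2 sites by wild-type G9a score differed in kind. At chr17:4626227-4626581 all 355 bp of the site lay under the knockout and library 0 Ezh2 peaks and under both G9a peaks. Its G9a scores were 949.27 in the rescue and 330.8 in the wild type, while its Ezh2 scores were 143.07 in the knockout, 103.27 in library 0 and 42.75 in library 1. At chr8:9769140-9773020 Ezh2 was strong, with scores of 438.31 in the knockout and 691.65 in library 0. The G9a peaks of that site, with scores of 120.17 in the rescue and 201.74 in the wild type, were centred 1721 and 1493 bp before the site centre.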

How the data were processed

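The authors deposited 1 peak list per library for 5 libraries; the 3 input libraries were not analysed here. The submitters' processing notes list Bowtie 0.12.7, MACS 1.4 and mm9. The wild-type inputs were combined as control for Ezh2 and G9a, per the series' design text; whether this holds for the knockout Ezh2 list or the knockout input was used there is not stated plainly. Cells were fixed with 1% formaldehyde for 10 min, and for G9a first with 2 mM DSG for 45 min, per the labels' protocols. The deposited score of a peak is the value of the authors' peak caller, in MACS output -10*log10 of a p-value, and was used only within a list. The minimum score for a call was not given in the sources used here.

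Groups came from the sample titles; the source name of the knockout Ezh2 library gives TT2 alone, and its title was followed. Overlap meant at least 1 bp. Where a site held several peaks of a list, cover is their union inside the site. Position and score are then the centre and the score of the highest-scoring one. Spans are printed 1-based. Intervals are exact binomial for shares, Newcombe's for the difference of shares and order-statistic for medians, at 95%. Sites were named by fixed rules on score rank, width, displacement, G9a score and spacing. Members and rules were chosen with earlier results of these data known. Computations used Python 3.11.15, numpy 2.4.6, scipy 1.17.1, pandas 2.3.3 and matplotlib 3.10.9, and were tested on simulated peaks.

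Alternatives were other width limits, overlap rules, score minima, list lengths, a 1 kb window for G9a, leaving out chromosomes 1 and 8 and leaving out each wild-type Ezh2 library.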

Additional observations from a re-analysis of the deposited data

How the results depend on the processing

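No paired analysis was possible because no result comes from a test and the knockout has 1 library. Of 114 recomputed values, 59 stayed within the interval of the reported value (counts within 1.5 times) and 55 did not; the cause was not tested beyond what each setting does by construction. The difference in wild-type G9a share, kept minus uncalled, ranged from -3.42 to 1.16 points over 15 alternatives, all inside the reported interval, but which side of 0 it lay on was not stable. Its own interval lay wholly below 0 in 2 of them, with gaps of up to 1 kb (-3.42; -5.94 to -0.95) and without library 1 (-1.89; -3.18 to -0.62), whereas the reported interval spans 0. These intervals take sites as independent and are no test of a difference. In the same 2 settings kept sites lay a median of 301 and 341 bp from the nearest other one. The difference was above 0 in 2 alternatives, without library 0 (1.16) and without chromosomes 1 and 8 (0.26).

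With widths below 2000, below 3000 and below 6000 bp, the share kept was 36.5%, 48.7% and 59.2%, the median width 1553, 2066 and 2647 bp, the knockout cover 475, 604 and 776.5 bp, and the spacing 1277260, 544270 and 243634 bp. Below 2000 bp there were 389 sites, a cover ratio of 0.88, and rescue and wild-type G9a shares of 16.7% and 12.3%; the distance between knockout and library 0 centres was 145.5 bp there and 168 bp below 3000 bp. Counting gaps of up to 1 kb gave 1747 sites, 57.7% kept, a width of 1821 bp, a cover of 419 bp, a ratio of 0.75, a centre distance of 207 bp, a spacing of 301 bp, and G9a shares of 16.6% (rescue) and 12.0% (wild type). Ezh2 scores of at least 100 gave 430 sites, 41.5% kept, a width of 2832 bp, a cover of 910.5 bp, a centre distance of 134.5 bp, a spacing of 1171083 bp and a rescue G9a share of 17.2%.

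G9a scores of at least 50 and of at least 100 gave rescue shares of 5.15% and 3.41% and wild-type shares of 3.06% and 1.31%. A 1 kb window at the site centre gave 11.0% and 10.0%, and counting G9a peaks within 1 kb gave 29.3% and 21.7%. The rescue list cut to the 67318 peaks of the wild-type list gave 16.2%. Without library 0 or without library 1 the values were 1710 to 2735 sites, 15.5% (without library 0, over all focal library 1 peaks) to 51.5% kept, widths of 785 to 1991 bp, covers of 504 to 524.5 bp, spacings of 341 to 170427 bp, rescue G9a shares of 6.73% to 18.4% and wild-type shares of 5.01% to 15.1%; the low ends of width and G9a share came without library 1. Without library 1 the cover ratio was 0.75; without library 0 no ratio or centre distance exists. Depth is unknown, so a missing call cannot be read as absent Ezh2.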

Other observations

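The same criteria applied to chromosomes X and Y, which lie outside the rule, found 169 focal library 1 peaks there, of which 48 were also called in library 0 and 9 of those in the knockout. A further 565 focal library 1 peaks on the autosomes had a knockout peak and no library 0 peak. They were narrower than the kept focal sites, with a median of 1243 bp, and rescue and wild-type G9a peaks lay in 15.8% (89) and 15.6% (88) of them.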
